A study of Mus musculus with 6 samples.

Results

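The 51 genes described here encode the proteins that copy DNA, drive cells into and out of mitosis and pace the passage through G1. They were taken from a list of mouse gene symbols named by function and drawn up with earlier results of these data known, and all 51 were found among the 54281 genes of the count table. For the description they were divided by role into 16 replication genes, 21 mitosis genes and 14 remaining genes, which are cyclins, kinases and inhibitors of G1, proliferation markers and transcription regulators. The samples were 6 wells of GLUTag, a mouse enteroendocrine line derived from a colonic tumour of mice that carried SV40 large T antigen behind the proglucagon promoter, and used as a model of the GLP-1 secreting L-cell. All wells were untreated and had been cultured for 48 h on Matrigel in DMEM with 1 g/L glucose and 10% fetal bovine serum. Plate 1 was at passage 23 (n = 3) and plate 2 at passage 27 (n = 3), and effects of plate and of passage cannot be told apart. Nothing in the labels makes the wells of a plate separate cultures, and p-values therefore measure the spread between these wells, which may be technical.

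Libraries were made from poly(A) RNA with a kit that reads the 3′ end of each transcript, so counts scaled to the library total (CPM) stand for transcripts without division by length, and CPM can be set side by side between genes. Library totals lay between 21399987 and 36488198 counts. A count of 0 allows up to 3 counts, which is 0.0822 to 0.14 CPM, and this limit covers counting error only. The markers matched the label, as 8 of 8 enteroendocrine markers exceeded 3 counts in every library with a summed level of 4576 to 7075 CPM. Other cell types were near absent by their marker lists. Enterocyte markers summed to 0.583 to 1.85 CPM with 2 of 5 above 3 counts throughout and Apob at 0, fibroblast markers to 4.71 to 7.06 CPM with 1 of 5 and Col3a1 at 0, and blood cell markers to 1.15 to 2.92 CPM with 1 of 5. The plate 2 columns could be tied to their plate but not to single labelled samples, and these libraries are called here the lowest-total, middle-total and highest-total libraries. The middle-total library of plate 2 stood apart from its plate mates in several of these genes, and the comparison of plates is given with and without it.

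Cells prepare for S phase in G1, when cyclin D kinases and cyclin E kinases release E2F transcription factors from the retinoblastoma proteins and the MCM helicase is loaded onto origins by the origin recognition complex, CDC6 and CDT1. During S phase the helicase unwinds the DNA and polymerases copy it, and genes of this step are typically switched on by E2F. Genes of mitosis are held off in resting cells by the DREAM complex and switched on later by its MuvB core together with B-MYB and FOXM1, which act at a promoter element called the cell cycle genes homology region (CHR), often beside a CCAAT box bound by NF-Y. Most cells of the adult gut that secrete hormones have left the cycle, whereas a cell line divides in culture.

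The promoters of these genes differed in their elements by role. RefSeq promoters on GRCm38.p6, each of 250 bases before and 50 bases after a start, were searched on both strands, and 39 of the 51 genes had an entry. The E2F element was read as TTGGCGC, or as TTCCCGC, or as TTGCCGC, or as TTCGCGC, the CHR as TTTGAA or else as TTCGAA, and the NF-Y box as CCAAT. E2F letters were found in 10 of 13 replication genes (76.9%) and in 2 of 17 mitosis genes (11.8%), against 10.9% of all 27025 genes with an entry. CHR letters showed the opposite split, with 2 of 13 replication genes (15.4%) and 13 of 17 mitosis genes (76.5%), against 21.7% of all genes. The CCAAT box was found in 76.9% of the replication genes, in 88.2% of the mitosis genes and in 41.1% of all genes. These shares describe letters in a window, and binding was not measured. The E2F letters are shown, in capitals, for 2 subunits of the helicase, for the large subunit of ribonucleotide reductase and for a helicase loader.
Mcm6: attggacgggtTTGGCGCgaagtagctcag
Mcm5: cgccaagaactTTCGCGCcaaaacgtccag
Rrm1: aggagaactcgTTCCCGCcaggtccgcttt
Cdc6: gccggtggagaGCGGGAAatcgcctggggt
The 30 bases of Mcm6 are chr1:128359733-128359762 on the minus strand, and those of Mcm5 (chr8:75109346-75109375), Rrm1 (chr7:102441617-102441646) and Cdc6 (chr11:98908002-98908031) are on the plus strand of GRCm38.p6. The capitals begin 46 bases upstream of the start in Mcm6, 152 in Mcm5, 67 in Rrm1 and 138 in Cdc6, where the motif reads on the opposite strand. On the opposite strand, overlapping the capitals, the stretch of Mcm6 also holds TTCGCGC and that of Mcm5 also holds TTGGCGC. Each gene was counted 1 time, whatever its number of matches or of promoter windows. The 27025 genes had 32851 windows, and a gene with several windows had more chances to match.

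The CHR letters are shown for the mitotic kinase, for the activator and the ubiquitin conjugating enzyme of mitotic exit, and for a spindle motor.
Cdk1: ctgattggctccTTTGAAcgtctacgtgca
Cdc20: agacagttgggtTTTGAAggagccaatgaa
Ube2c: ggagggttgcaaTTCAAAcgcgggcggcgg
Kif11: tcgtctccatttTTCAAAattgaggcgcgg
In Ube2c and Kif11 the capitals are TTTGAA on the opposite strand. The sequences of Cdk1 (chr10:69352966-69352995) and Cdc20 (chr4:118437344-118437373) are on the minus strand and those of Ube2c (chr2:164769888-164769917) and Kif11 (chr19:37376351-37376380) on the plus strand of GRCm38.p6. The letters shown lay 71 bases upstream of the start in Cdk1, 18 in Cdc20, 29 in Ube2c and 19 in Kif11. Cdk1 also held TTTGAA 15 bases upstream of the start. Cdk1, the highest of the mitosis genes by the 6-library mean (Birc5 was higher in 3 of 6 libraries), was also among the 2 mitosis genes with E2F letters, the other being Ccnb1. Mcm2 and Mcm7 were the 2 replication genes with CHR letters, and Cdk1, Mcm7 and the proliferation marker Mki67 held both elements.

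**Figure D1:**
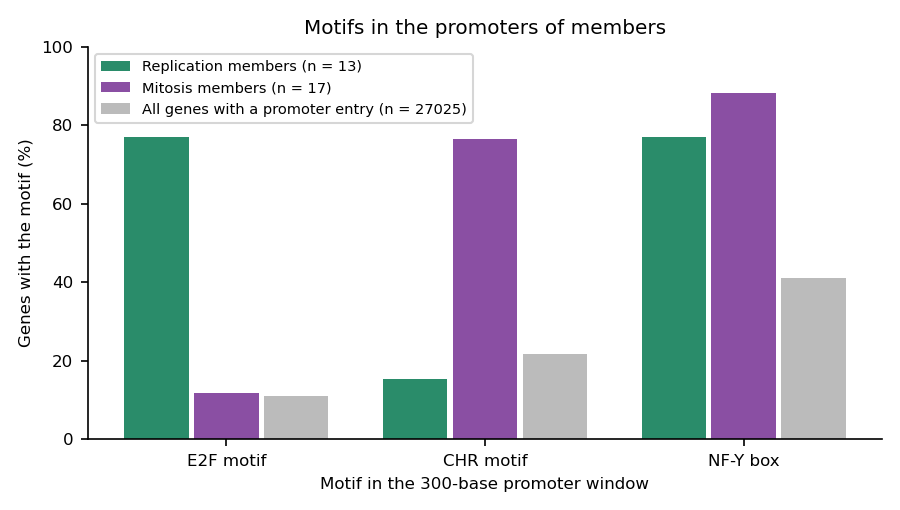
Share of genes with each element in the 300-base promoter window (vertical axis, percent), for 13 replication genes, 17 mitosis genes and all 27025 genes with a promoter entry. E2F letters were found in 76.9% of replication genes and 11.8% of mitosis genes, and CHR letters in 15.4% and 76.5%.

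GLUTag cells expressed nearly the whole set. In every library 48 of the 51 genes exceeded 3 counts and reached at least 1 CPM, as 12360 genes of the whole table did. The exceptions were the cyclin genes Ccnd1 and Ccnd2 and the inhibitor gene Cdkn1c. The 51 genes together made up 7711 to 9895 CPM, or 0.859% of all counts. Their median level was 116 CPM, with 139 CPM for the 16 replication genes and 109 CPM for the 21 mitosis genes. Replication genes lay within a narrow band of 59.2 to 277 CPM, whereas mitosis genes ranged from 22.6 to 669.8 CPM. Fewer dividing cells and less RNA of a gene per dividing cell cannot be told apart in such bulk libraries.

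**Figure D2:**
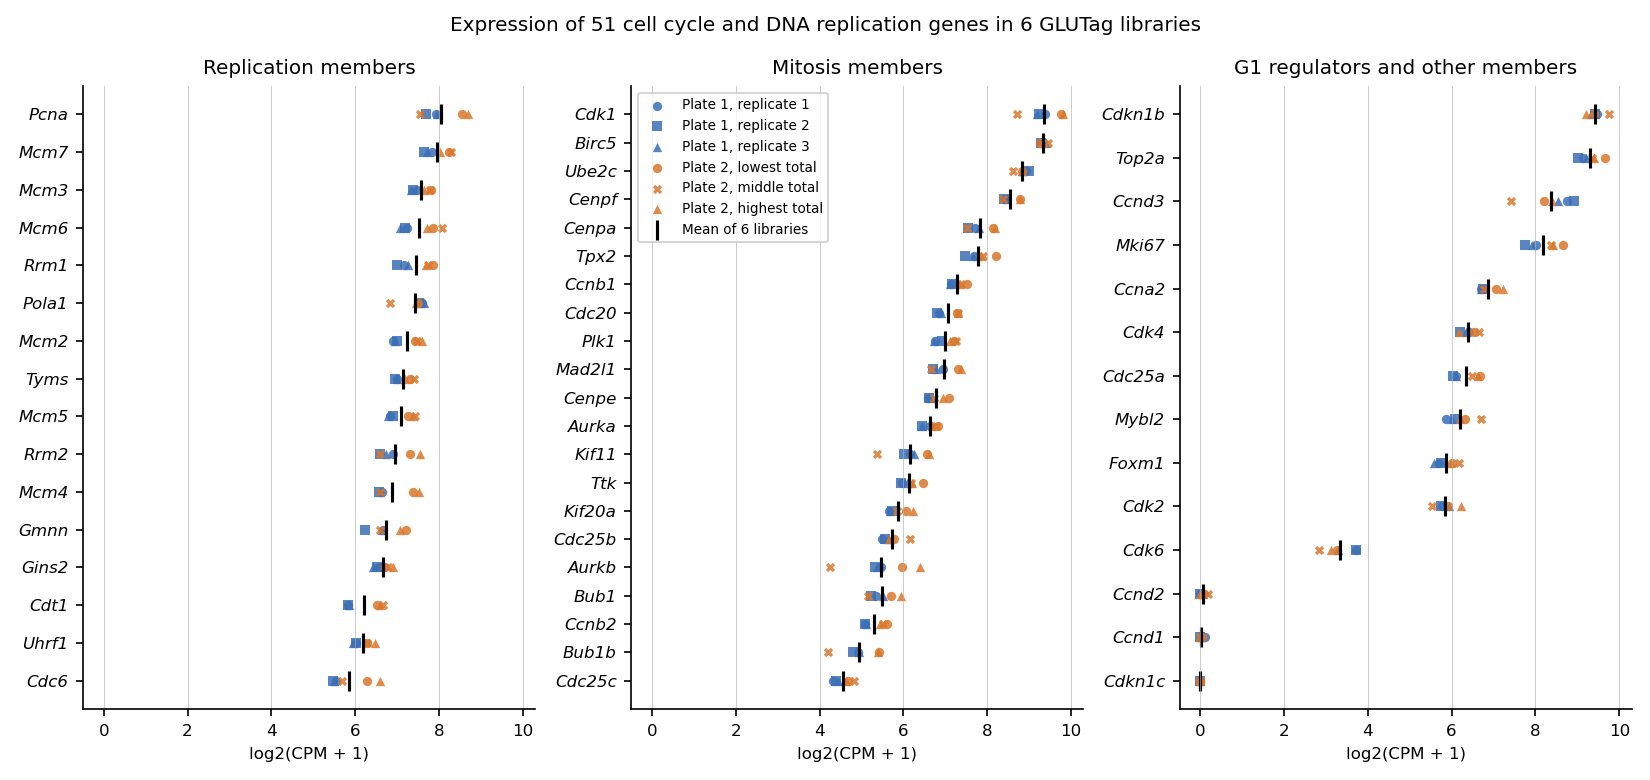
Expression of the 51 genes as log2(CPM + 1) on the horizontal axis, 1 row per gene in 3 panels by role, with a symbol for each of the 6 libraries and a vertical line at the mean. 48 genes are expressed in every library, and Ccnd1, Ccnd2 and Cdkn1c sit at or near 0.

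Licensing and helicase genes had mean levels of 59.2 to 251 CPM. Mcm7, a subunit of the MCM helicase, was the highest of them at 225, 199 and 208 CPM in replicates 1, 2 and 3 of plate 1 and at 300.2, 312 and 258 CPM in the lowest-total, middle-total and highest-total libraries of plate 2 (in this order throughout). The subunit Mcm3 stood at 177, 165 and 159 CPM on plate 1 and at 224, 218 and 197 CPM on plate 2. For both genes every plate 2 library lay above every plate 1 library in CPM. This held for 39.8% of the 12360 genes that reached 1 CPM throughout. For both genes the plates overlapped once CPM were scaled by the trimmed mean of M values (TMM). The other 4 subunits had mean levels of 189 CPM ± 54.4 for Mcm6, 151 CPM ± 31.9 for Mcm2, 138 CPM ± 27.8 for Mcm5 and 122 CPM ± 41 for Mcm4 (SD, n = 6). The 6 subunits form a hexamer in equal number, and their mean levels spanned 122 to 251 CPM.

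By the 6-library means the helicase loaders were lower than every subunit of the helicase. In the middle-total library, however, Cdt1 (100.4 CPM) was above Mcm4 (95.7 CPM). Cdc6, whose product brings the helicase to origins, had the lowest mean of the replication genes, with Uhrf1 lower in 2 of 6 libraries, and stood at 45.3, 43.2 and 44.3 CPM on plate 1 and at 77.0, 50.7 and 95.1 CPM on plate 2. Cdt1, its partner in loading, stood at 55.6, 55.9 and 56.8 CPM on plate 1 and at 91.5, 100.4 and 96.3 CPM on plate 2. The plate 1 wells were within a few percent of each other for both genes and the plate 2 wells were all higher in CPM (with TMM scaling for Cdt1 but not for Cdc6), widely scattered for Cdc6 and close together for Cdt1. Every plate 2 library was also above plate 1 in CPM for 39.8% of the 12360 genes that reached 1 CPM throughout. With TMM scaling the share was 13.3%. Gmnn, which encodes the CDT1 inhibitor geminin, was at 99.7, 74.1 and 99.1 CPM on plate 1 and at 146, 94.8 and 134 CPM on plate 2. Gmnn exceeded Cdt1 in 5 of 6 libraries, by 0.51 ± 0.34 on the log2(CPM + 1) scale (SD, n = 6), and the difference did not pass the exact two-sided sign-flip permutation test after adjustment over the 14 pairs of related genes compared (p = 0.0625, adjusted p = 0.0673). The exception was the middle-total library of plate 2.

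At the fork, Pcna encodes the sliding clamp that holds polymerases on DNA and had the highest 6-library mean of the replication genes. It was measured at 242, 205 and 246 CPM on plate 1 and at 372, 187 and 410.3 CPM on plate 2. The middle-total library of plate 2 was thus the lowest of the 6, with Pcna below Mcm7, Mcm6, Mcm3 and Rrm1 there, and its plate mates the 2 highest. The last 300 nt of Pcna share 221 31-base words with the pseudogene Pcna-ps2, listed at 0.879 to 32.3 CPM, so a part of its reads could be assigned to either. Rrm1, the large subunit of ribonucleotide reductase, stood at 142, 127 and 151 CPM on plate 1 and at 233, 211 and 205 CPM on plate 2. Rrm2, the subunit that carries the radical and is made in S phase, was lower at 119, 96.3 and 105 CPM on plate 1 and at 158, 95.8 and 188 CPM on plate 2. Rrm1 exceeded Rrm2 in 6 of 6 libraries by 0.50 ± 0.35 log2 (SD; adjusted p = 0.0365 in the exact permutation test, the smallest that 6 libraries allowed here).

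Tyms, which makes thymidylate, had a mean of 141 CPM ± 18.4, and Gins2, a part of the active helicase, 100.3 CPM ± 12.5 (SD, n = 6). Uhrf1, which keeps methylation on newly copied DNA, stood at 64.1, 64.4 and 61.0 CPM on plate 1 and at 76.9, 76.5 and 88.5 CPM on plate 2. Pola1, the catalytic subunit of the polymerase that starts each strand, was measured at 193, 182 and 200.1 CPM on plate 1 and at 181, 112 and 175 CPM on plate 2. Of the 12360 genes that reached 1 CPM throughout, 4.0% had every plate 2 library below every plate 1 library in CPM, and 13.2% with TMM scaling. Pola1 was the only replication gene among them on either scale, with a narrow margin in CPM (181 CPM on plate 2 next to 182 CPM on plate 1). Its level is uncertain, because its last 300 nt share at least 1 31-base word with 933 other genes and 60 or more words with 6 of them, the most being 82 with Dnajb14 (573 to 2235 CPM). Fewer than 60 words were shared with each of 829 genes by Mcm5, 610 by Cenpf, 591 by Cdc25c, 564 by Ube2c and 537 by Mcm2.

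Genes of entry into and exit from mitosis included the most abundant of the mitosis group. Cdk1, the kinase that starts mitosis, stood at 662, 606 and 581 CPM on plate 1 and at 860.0, 418 and 892 CPM on plate 2. The middle-total library of plate 2 was the lowest here as for Pcna. Cdk2, the kinase of S phase, was at 53.1, 52.6 and 60.3 CPM on plate 1 and at 59.3, 44.9 and 73.3 CPM on plate 2. Both kinases had their lowest level in the middle-total library and their highest in the highest-total library. Cdk1 exceeded Cdk2 by 3.50 ± 0.24 log2 (SD) in 6 of 6 libraries (exact permutation adjusted p = 0.0365), with 9.31 to 14.5 times as many CPM.

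Cyclins B are the partners of CDK1. Ccnb1 was measured at 141, 142 and 137 CPM on plate 1 and at 182, 166 and 161 CPM on plate 2. Ccnb2 stood at 32.8, 32.9 and 33.5 CPM on plate 1 and at 48.2, 44.4 and 42.6 CPM on plate 2. This difference had the smallest SD of the 14 pairs, with Ccnb1 above Ccnb2 by 1.97 ± 0.09 log2 in 6 of 6 libraries (exact permutation adjusted p = 0.0365). The end of Ccnb1 shares 60 or more 31-base words with 5 pseudogenes, all listed at 0 in every library. Ccna2, the cyclin of S phase and early mitosis, had a mean of 116 CPM ± 18.9 (SD, n = 6).

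The CDC25 phosphatases remove the inhibitory phosphates from these kinases. Cdc25a, which acts at the G1 to S step and later, was measured at 67.5, 64.8 and 67.4 CPM on plate 1 and at 101, 88.0 and 98.0 CPM on plate 2. Cdc25b, which acts at the start of mitosis, stood at 44.1, 46.5 and 48.5 CPM on plate 1 and at 53.8, 70.6 and 49.8 CPM on plate 2, with the middle-total library the highest. Cdc25c, also a mitotic phosphatase, had the lowest mean of the mitosis genes, although Bub1b and Aurkb were lower in the middle-total library, and stood at 19.1, 19.98 and 20.7 CPM on plate 1 and at 24.8, 27.5 and 23.8 CPM on plate 2. The order a, b, c was the same in 6 of 6 libraries. Cdc25a exceeded Cdc25b by 0.62 ± 0.26 log2, and Cdc25b exceeded Cdc25c by 1.16 ± 0.10 log2 (SD; exact permutation adjusted p = 0.0365 for each, and for Cdc25a over Cdc25c with 1.78 ± 0.17).

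Ube2c and Cdc20 serve the anaphase promoting complex, which ends mitosis by marking cyclin B and securin for destruction. Ube2c was the third mitosis gene by level, at 482, 509 and 456 CPM on plate 1 and at 454, 389 and 452 CPM on plate 2. Cdc20 had a mean of 135 CPM ± 22.8 and Plk1, a kinase of mitotic entry and of the centrosome, 128 CPM ± 20.3 (SD, n = 6). Unlike most of the set, Ube2c was lower in every plate 2 library. The margin in CPM was narrow, at 456 CPM for the lowest plate 1 library and 454 CPM for the highest plate 2 library. Such an order held in CPM for 4.0% of the 12360 genes that reached 1 CPM throughout, and with TMM scaling for 13.2%.

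Genes of the spindle, its checkpoint and the centromere were led by Birc5, which encodes survivin of the chromosomal passenger complex. Birc5 stood at 619, 624 and 678 CPM on plate 1 and at 608, 699.8 and 637 CPM on plate 2. In CPM its coefficient of variation (CV, the SD over the mean) was the smallest of the 48 expressed genes at 5.66%, but with TMM scaling every plate 2 library lay below every plate 1 library. That order held for 13.2% of the 12360 genes that reached 1 CPM throughout. Aurkb, the kinase of the same complex, had the largest CV in CPM and stood at 43.2, 38.9 and 40.6 CPM on plate 1 and at 61.8, 17.9 and 82.6 CPM on plate 2, with a CV of 46.6%. The scatter of Aurkb lay within plate 2, and without the middle-total library its CV was 35.0%, below the 39.0% of Cdc6. Aurka, the kinase of spindle poles, was measured at 97.9, 85.9 and 85.8 CPM on plate 1 and at 113, 108 and 103 CPM on plate 2. Aurka exceeded Aurkb in 6 of 6 libraries by 1.17 ± 0.74 log2 (SD; exact permutation adjusted p = 0.0365), but by as little as 0.31 in the highest-total library and as much as 2.54 in the middle-total library.

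Checkpoint kinase Bub1 was at 40.0, 36.1 and 44.7 CPM on plate 1 and at 51.5, 34.8 and 60.9 CPM on plate 2. Bub1b, which encodes the checkpoint protein BUBR1, was at 29.0, 26.6 and 29.7 CPM on plate 1 and at 41.5, 17.3 and 40.9 CPM on plate 2. Both had their lowest level in the middle-total library, and Bub1 exceeded Bub1b by 0.55 ± 0.23 log2 (SD) in 6 of 6 libraries (exact permutation adjusted p = 0.0365). Among the other checkpoint and centromere genes, means were 375 CPM ± 52.1 for Cenpf and 109 CPM ± 16.2 for Cenpe, both kinetochore proteins, 228 CPM ± 46.8 for Cenpa, the histone of the centromere, 126 CPM ± 28.5 for the checkpoint gene Mad2l1 and 70.1 CPM ± 10.0 for the checkpoint kinase gene Ttk (SD, n = 6). Spindle genes stood at 223 CPM ± 40.9 for the microtubule nucleator Tpx2, 73.0 CPM ± 20.6 for the motor Kif11 and 58.1 CPM ± 9.84 for the motor of cytokinesis Kif20a.

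The G1 genes were the most uneven group. D-type cyclins, which carry growth signals to CDK4 and CDK6, were represented by Ccnd3 alone. Ccnd3 was measured at 432, 484 and 370.0 CPM on plate 1 and at 292, 168 and 337 CPM on plate 2. Ccnd1 had 2, 0 and 0 counts on plate 1 and 1, 0 and 0 counts on plate 2. Ccnd2 had 0, 0 and 1 counts on plate 1 and 2, 4 and 0 counts on plate 2. Over the 6 libraries Ccnd3 had 18322 times the counts of Ccnd1 (95% exact interval 6269 to 88846) and 7852 times those of Ccnd2 (3811 to 19531), intervals that cover counting error only. Most counts of Ccnd1 came from replicate 1 of plate 1 and most of Ccnd2 from the middle-total library. Each fold thus depends strongly on 1 library. Within the library Ccnd3 exceeded Ccnd1 and Ccnd2 in 6 of 6 libraries (exact permutation adjusted p = 0.0365 for each). These p-values say no more than that Ccnd3 was detected and the others were near 0, and Ccnd1 and Ccnd2 did not pass a test of their difference (exact permutation p = 0.625, adjusted p = 0.625).

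Of the kinases that bind D-type cyclins, Cdk4 was at 83.6, 72.6 and 80.0 CPM on plate 1 and at 91.4, 100.1 and 71.7 CPM on plate 2. Cdk6 stood at 12.3, 12.2 and 8.83 CPM on plate 1 and at 8.65, 6.18 and 7.65 CPM on plate 2. Cdk4 thus gave between 5.97 and 16.2 times the CPM of Cdk6, a difference of 3.06 ± 0.47 log2 (SD) in 6 of 6 libraries (exact permutation adjusted p = 0.0365). Cdk6 was the lowest of the 48 expressed genes and lay at percentile 28.5 of the 12360 genes that reached 1 CPM throughout. Cdk4 and the antisense gene Tspan31 (38.8 CPM) overlap at their ends, as do 12 of the 51 genes with some antisense gene within the last 2 kb.

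Of the CIP/KIP family of CDK inhibitors the set held only Cdkn1b and Cdkn1c, which were split as sharply as the D-type cyclins. Cdkn1b, which encodes p27, an inhibitor of cyclin E and cyclin A kinases known for holding cells in G1, had the highest 6-library mean of all 51 genes (without the middle-total library Cdk1 had, at a mean of 720.2 against 659 CPM) and stood at 709.8, 689.7 and 636 CPM on plate 1 and at 669, 868 and 589.7 CPM on plate 2. Cdkn1c, which encodes p57, was listed at 0 counts in 6 of 6 libraries. Over all libraries Cdkn1b was at least 37797-fold higher than the limit of 3 counts, and at least 4534-fold in each library. The expression of an inhibitor above that of Cdk1 was not a feature of every library, since Cdk1 was higher in the lowest-total and highest-total libraries. Cdkn1b exceeded Cdkn1c in 6 of 6 libraries (exact permutation adjusted p = 0.0365), where again the p-value only marks detection.

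**Figure D3:**
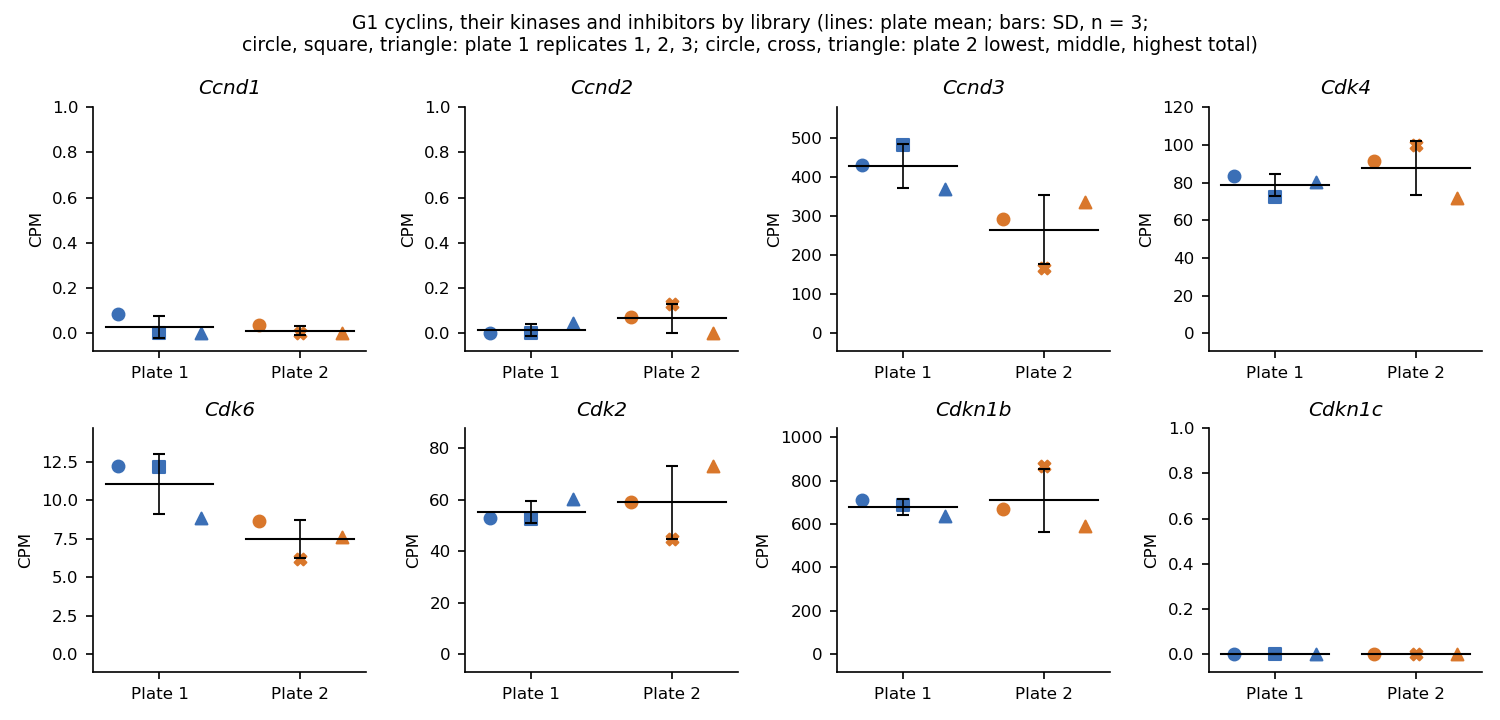
CPM (vertical axes, each panel with its own scale) of 8 G1 genes on plate 1 (blue) and plate 2 (orange), with a symbol per library, a line at the plate mean and bars of 1 SD (n = 3). Ccnd3, Cdk4 and Cdkn1b are well above 0 in every library, while Ccnd1, Ccnd2 and Cdkn1c stay at 0 to 4 counts.

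Proliferation markers were abundant. Top2a, the topoisomerase that untangles DNA in S phase and mitosis, stood at 563, 514 and 593 CPM on plate 1 and at 808, 648 and 671 CPM on plate 2. Mki67, the marker of dividing cells Ki-67, was at 255, 215 and 243 CPM on plate 1 and at 399.8, 329.8 and 343 CPM on plate 2. For both genes every plate 2 library was above plate 1 in CPM, as for 39.8% of the 12360 genes that reached 1 CPM throughout. With TMM scaling this held for Mki67 and not for Top2a. The transcription regulators of the late cycle were lower than most of the mitosis genes, at 73.4 CPM ± 16.3 for Mybl2, which encodes B-MYB, and 57.8 CPM ± 9.22 for Foxm1 (SD, n = 6).

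Across the 6 libraries the 48 expressed genes varied about as much as other genes. Their median CV was 18.3%, against 19.9% for the 12360 genes that reached 1 CPM throughout, and 26 of 48 were below that value. The middle-total library of plate 2 was compared with the others, with all genes standing here for these 12360. It was the lowest library for 15 of the 48 genes, against 20.4% of all genes, and the highest for 14, against 35.9% of all genes. Set against the mean of the other plate 2 libraries, 13 of 48 genes were more than 1.5-fold lower in it and 0 more than 1.5-fold higher, against 17.5% and 4.64% of all genes. More than 2-fold lower were Aurkb at 0.247 times the others, Bub1b at 0.419, the motor gene Kif11 at 0.425, and Cdk1 and Pcna at 0.477 each. These 5 of 48 genes were a share near that of all genes, of which 8.2% were that much lower. In the same library Cdt1, Ccnb1, Aurka, Cdc20 and Rrm1 stood at 0.966 to 1.07 times its plate mates, and Cdc25b, Mybl2 and Cdkn1b at 1.36 to 1.38 times. The median difference was -0.17 log2 for the 48 genes and -0.03 for all genes. The last 200 nt of the 13 low genes had a median GC content of 34.8%, against 42.7% for the other 35, and across the 48 genes GC content and the difference had a Spearman correlation of 0.414, a description only, as the genes share the library. The part of GC content in the low values was not tested.

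The only contrast the labels give is plate 2 (passage 27) against plate 1 (passage 23). In edgeR's quasi-likelihood test, with TMM scaling, 0 of the 48 genes tested passed an adjusted p of 0.05, and of all 15669 genes 0.185% passed, 2 higher and 27 lower on plate 2. The smallest adjusted p among the 48 was 0.10, of Cdt1. DESeq2 called 4 (Cdt1 higher and Ccnd3, Cdk6 and Ube2c lower, with 4.09% of all genes called), limma-voom called 0 (0.191% of all genes), edgeR without a filter on low counts called 4 (2.02% of all genes), and 11 of 48 had an unadjusted edgeR p under 0.05 against 16.1% of all genes. Without the middle-total library, edgeR called 15 of the 48 (9 higher and 6 lower) and 12.0% of all genes (4.2% higher and 7.83% lower on plate 2). Those higher on plate 2 were then the replication genes Cdc6, Cdt1, Mcm4, Mcm6, Pcna, Rrm1 and Rrm2 with Aurkb and Mki67, and those lower were Pola1, Birc5, Ube2c, Ccnd3, Cdk6 and Cdkn1b.

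Of the 11 genes with an unadjusted edgeR p under 0.05, named after their values were seen, those farthest from 0 were G1 genes. Ccnd3 had a log2 fold change of -0.96 (SE 0.25, edgeR adjusted p = 0.143) and Cdk6 of -0.84 (SE 0.20, edgeR adjusted p = 0.119), and for both every plate 2 library lay below every plate 1 library. That order held in CPM for 4.0% of the 12360 genes that reached 1 CPM throughout, and with TMM scaling for 13.2%. Ube2c had a log2 fold change of -0.43 (SE 0.12, edgeR adjusted p = 0.141) and Pola1 of -0.57 (SE 0.17, edgeR adjusted p = 0.161). In the other direction stood Cdt1 at 0.51 (SE 0.11), Cdc6 at 0.48 (SE 0.20), Mcm6 at 0.46 (SE 0.13), Rrm1 at 0.36 (SE 0.11), Mki67 at 0.32 (SE 0.12), Mcm2 at 0.28 (SE 0.11) and Cdc25a at 0.26 (SE 0.11), with edgeR adjusted p between 0.10 and 0.287. None of these 11 differences passed the test in the 6 libraries. The log2 fold change of Cdc6 ranged from 0.26 to 0.65 when each library was left out in turn.

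**Figure D4:**
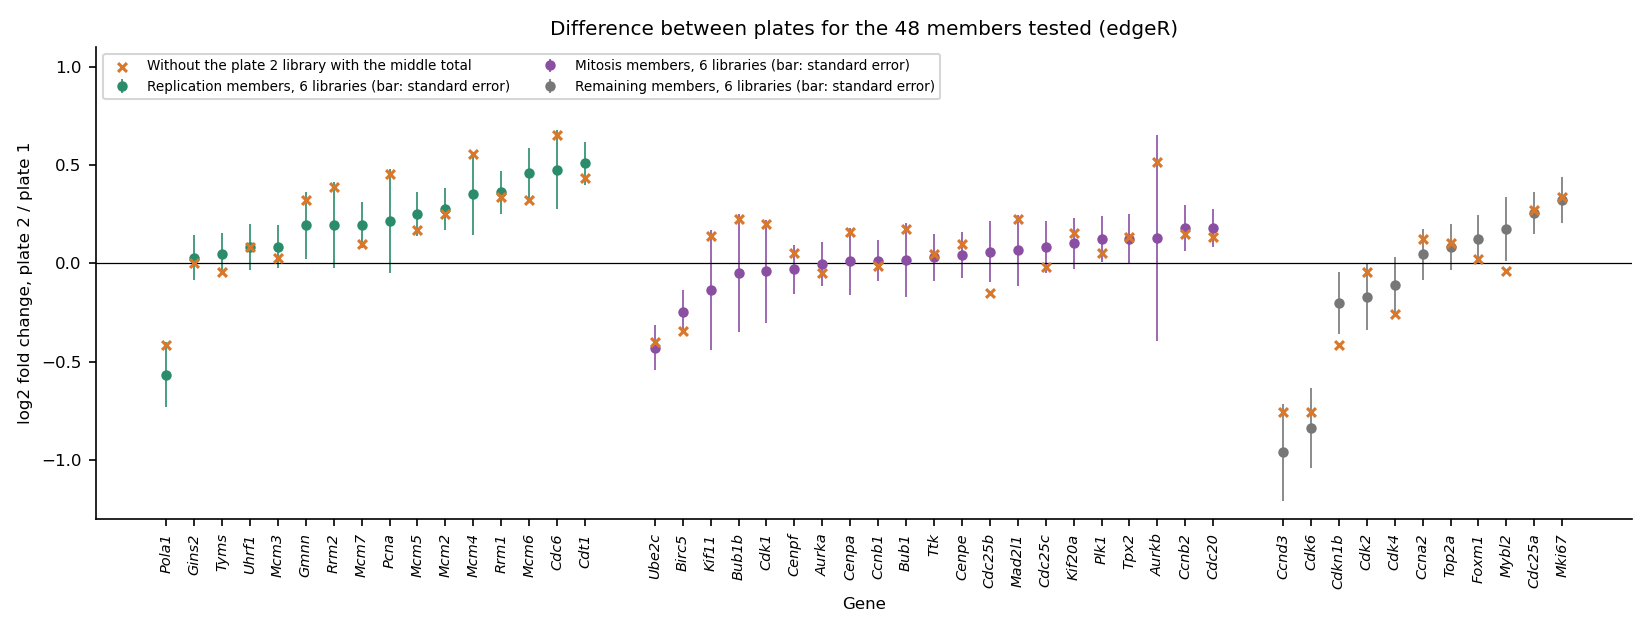
Log2 fold change of plate 2 over plate 1 (vertical axis) from edgeR for the 48 genes tested, ordered by value within the replication, mitosis and remaining genes. Points are the 6-library fit with bars of 1 standard error, and crosses are the fit without the middle-total library. Of the 16 replication genes 15 are above 0, and Ccnd3 and Cdk6 are the lowest points.

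By groups, the log2 fold changes had a median of 0.20 for the replication genes, of which 15 of 16 were positive (Pola1 was the exception), of 0.03 for the mitosis genes, with 14 of 21 positive, and of 0.04 for the remaining 11. All genes tested had a median of 0.03 with 54.1% positive. Without the middle-total library the medians were 0.28 for the replication genes (14 of 16 positive, with Tyms then at -0.05), 0.13 for the mitosis genes (15 of 21), -0.04 for the remaining genes and 0.01 for all genes. Scaling mattered for these directions, since the median of all genes rose by 0.268 when libraries were scaled by their total only, and 10 of 48 genes were then called, all higher on plate 2, as were 9.01% of all genes. Relative to all genes under that scaling (0.30), the median was 0.47 for the replication genes and 0.30 for the mitosis genes, at distances from all genes similar to those under TMM. Plain CPM shares this shift. In CPM 28 of 48 genes had every plate 2 library above every plate 1 library, and 4 (Pola1, Ccnd3, Cdk6 and Ube2c) had every plate 2 library below. Of the 12360 genes that reached 1 CPM throughout, 39.8% lay above and 4.0% below. With TMM-scaled CPM the counts were 9 above (13.3% of the 12360) and 5 below (13.2%), the latter being the same 4 genes and Birc5. Mki67, Mcm2, Mcm5, Mcm6, Cdt1, Rrm1, Ccnb2, Cdc20 and Cdc25a were the 9 above.

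A measure that does not depend on scaling is the balance of the groups within a library. Replication genes summed to 2063, 1909 and 2004 CPM on plate 1 and to 2839.5, 2444 and 2859 CPM on plate 2. Mitosis genes summed to 3584, 3472 and 3558 CPM on plate 1 and to 4352, 3427 and 4334 CPM on plate 2. The ratio of the sums was 0.576, 0.55 and 0.563 on plate 1 and 0.652, 0.713 and 0.66 on plate 2, so that every plate 2 library had more replication transcripts per mitosis transcript than every plate 1 library. The plates stayed apart without the most abundant mitosis genes, but the gap between them narrowed, so the separation rested in part on these genes. Without Cdk1, Birc5 and Ube2c the ratio was 1.09 to 1.13 on plate 1 and 1.17 to 1.27 on plate 2, and without Pola1 and Pcna, which share 60 or more end words with a gene listed above 1 CPM on average, it was 0.438 to 0.454 and 0.525 to 0.626. As a difference of mean log2 CPM, in which each gene counts alike, it was 0.13 to 0.19 on plate 1 and 0.28 to 0.45 on plate 2. The share of mitochondrial counts was 3.98% to 4.85% on plate 1 and 4.62% to 7.27% on plate 2, so the plates overlapped in it. As a part of the library total it cancels from the ratio, and any other tie to the ratio was not tested. The ratio was highest in the middle-total library, which had a low sum of mitosis genes, and no test was applied to these sums, as the genes are no replicates and their earlier values were known.

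**Figure D5:**
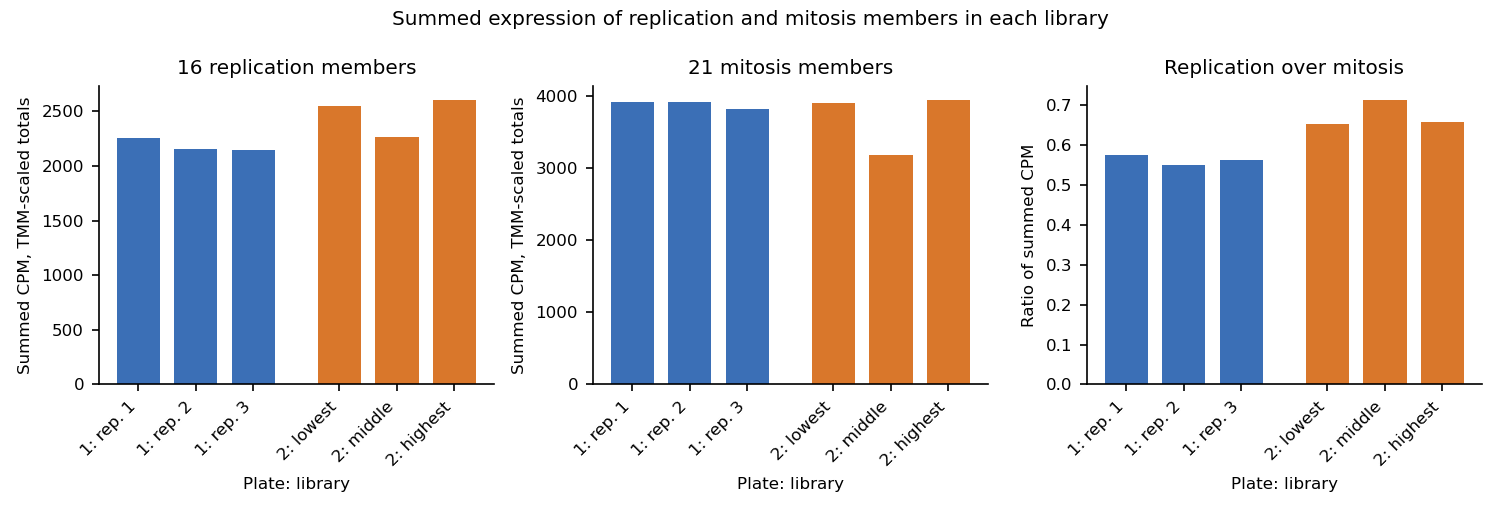
Summed TMM-scaled CPM of the 16 replication genes and of the 21 mitosis genes, and the ratio of the summed CPM, as bars for each of the 6 libraries (blue plate 1, orange plate 2). The ratio is 0.55 to 0.576 on plate 1 and 0.652 to 0.713 on plate 2.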

How the data were processed

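Poly(A) RNA of 6 GLUTag wells was sequenced by the authors with a 3′ end kit. Per the labels and the study's methods, reads were trimmed with Trim Galore 0.6.4 and quantified on GRCm38 transcripts with Salmon 1.5.1 without length correction, and the table deposited by the authors holds expected counts of each gene, without normalization. The 51 members, their division by role and the lists of other genes and markers were chosen with earlier results of these data known. Here CPM were taken over column totals, and counts were rounded for the count tests. Symbols came from GENCODE M21 on GRCm38 (54107 of 54281 identifiers matched), and promoters from RefSeq on GRCm38.p6.

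The plate comparison used the quasi-likelihood test of edgeR 4.0.16 in R 4.3.3, with TMM scaling, the filterByExpr filter, robust fitting and Benjamini-Hochberg adjustment over 15669 genes. DESeq2 1.42.0, limma-voom 3.58.1, total-count scaling, other filters and leaving out each library were tried as alternatives. For 14 pairs of related genes the log2 ratio of CPM + 1 within a library was tested by flipping signs over the 6 libraries (an exact permutation test, two-sided, Python 3.11.15), adjusted over the pairs. Values in every library are given for genes of the pairs and for the 3 highest and 3 lowest genes of each group, and others by mean and SD, except that Pola1 and Mki67 were added after their values were seen. On simulated counts with 200 genes changed 4-fold, edgeR recovered 93.7% with 5.21% false calls and DESeq2 90.8% with 9.73%. Secretion and siRNA experiments were not analysed here.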

Additional observations from a re-analysis of the deposited data

Results flagged for a closer look

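Of 51 values compared over the 6 libraries by Dixon's ratio, at its 95% critical value, 2 had a library far from the others, and chance alone gives about 1 in 20. These values are not the levels of the 51 genes, since a mean of at least 10 counts was required. Ccnd1, Ccnd2 and Cdkn1c were below it. Pola1 stood at 112 CPM in the middle-total library of plate 2, against 175 to 200.1 CPM in the other 5 (ratio 0.717). Cdc25b stood at 70.6 CPM in the same library, against 44.1 to 53.8 CPM in the other 5 (ratio 0.635). Both values lie in the library that was also lowest for Aurkb, Kif11, Cdk1 and Pcna.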

How the results depend on the processing

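Counts of calls between plates moved with the tool, the scaling, the filter and the libraries. Against 29 genes called by edgeR, DESeq2 called 579, scaling by the total only 1482 (1411 higher and 71 lower on plate 2, against 2 and 27), and edgeR without a filter on low counts 545. Leaving out each library in turn gave 0 to 1911 genes, the highest without the middle-total library of plate 2. For the 48 genes of the set the counts were 0 with edgeR, 4 with DESeq2, 10 with the total only, 4 without a filter (Cdt1 and Mcm6 higher, Pola1 and Cdk6 lower) and 0 to 15 with each library left out. limma-voom and a filter of 1 CPM in every library called 0 of the set. The median log2 fold change of the mitosis genes turned to -0.02 without the lowest-total library of plate 2. The log2 fold changes of the 11 genes with an unadjusted p under 0.05 kept their sign under each alternative. The direction of the 12 pairs that passed was kept under the other pseudocounts and with each library left out, which follows from their having the same order in 6 of 6 libraries, and with 5 libraries the exact test cannot go below 0.0625. No paired analysis was possible because the sample labels number the wells 1 to 6, with no number common to both plates, and the numbers 1 to 3 within each plate in the column names could not be tied to a label for plate 2. Depth limits Ccnd1, Ccnd2 and Cdkn1c to bounds.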

Other observations

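A list of 77 further genes of replication and mitosis was measured in the same libraries. All 77 exceeded 3 counts and 1 CPM in every library, with a median of 63.4 CPM and a sum of 7428 to 9649 CPM. The highest were Lig1, the ligase that joins Okazaki fragments, at 762 CPM ± 78.7 (SD, n = 6), and Smc2 and Smc4, the core subunits of condensin, at 647 CPM each. The lowest were Orc1 at 5.62 CPM ± 1.90, a subunit of the origin recognition complex, Chek1 at 12.8 CPM, the kinase of the replication checkpoint, and Orc5 at 15.4 CPM. By role the medians were 27.3 CPM for 13 origin and helicase genes, 121 CPM for 17 genes of the fork and nucleotides, 46.1 CPM for 16 regulators and 84.5 CPM for 31 mitosis genes.

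Between plates 0 of the 77 passed edgeR's test at an adjusted p of 0.05 and 15 had an unadjusted p under 0.05 (11 higher and 4 lower on plate 2), against 16.1% of all genes. DESeq2 called 5 of them, with Pold1, Espl1, E2f7 and Rpa1 higher and Rfc2 lower, against 4.09% of all genes, and limma-voom called 0. When libraries were scaled by their total only, edgeR called 18 of the 77, all higher on plate 2, as were 9.01% of all genes. With TMM scaling the median log2 fold change of the 77 in edgeR was 0.09, with 46 positive and 31 negative. Without the middle-total library of plate 2, edgeR called 13, of which 10 were higher and 3 lower on plate 2, against 12.0% of all genes.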
